A study of Mus musculus with 6 samples.

Results

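The expression of 10 core autophagy genes was described across 6 RNA-seq libraries of mouse embryonic fibroblasts. The genes were Ulk1, Becn1, Wipi1, Wipi2, Atg5, Map1lc3a, Map1lc3b, Gabarap, Gabarapl1 and Gabarapl2. They were picked by name for their place in the pathway, with earlier results of these data known. They are 10 of the 55291 genes listed in the count table, and all 10 were among the 14290 genes with enough counts to be tested. The cells, called WT MEFs, received vehicle, MASM7 at 1 μM or MFI8 at 20 μM, the compounds for 6 h each, and 2 libraries from separate biological replicates represented each of the 3 groups. MASM7 is a small molecule activator of the mitofusins MFN1 and MFN2, the GTPases that fuse outer mitochondrial membranes, and MFI8 is an inhibitor of them. The labels call the cells of every group WT and name no deleted gene or transgene. The concentrations and times were taken from the study's text, and the duration of the vehicle treatment was not given there. Whether the WT MEFs were 1 clone or a mixed population is not given in the sources used here, so the libraries describe this culture of fibroblasts. The groups received the compounds at different concentrations, so a difference between MFI8 and MASM7 cannot be told apart from a difference between 20 μM and 1 μM.

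Macroautophagy encloses cytoplasm, including whole mitochondria, in a double membrane that later fuses with lysosomes. It starts with the ULK1 kinase complex, continues with a class III PI3-kinase complex built around beclin 1, and uses WIPI proteins to read the lipid that this kinase makes. ATG5, joined to ATG12, then helps to attach the ubiquitin-like proteins of the LC3 and GABARAP families to the growing membrane. Much of this machinery is controlled on the proteins themselves, by phosphorylation, lipid attachment and turnover, which a measurement of RNA does not see.

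The libraries held 22791792 to 30677751 counts, with TMM factors between 0.991 and 1.01, and the core autophagy genes had 412 to 4306 counts each in a library. The share of counts on mitochondrially encoded genes was 1.66% and 1.82% in the vehicle libraries, 1.61% and 1.51% in those of MASM7, and 1.37% and 1.43% in those of MFI8. Of 10 fibroblast markers, 8 had at least 1 TPM in every library, Thy1 and Lum being lower, and the list summed to 5282 to 6616 TPM with vehicle, 5807 to 6634 with MASM7 and 5101 to 6218 with MFI8, the higher value in each group being that of replicate 1. The 4 endothelial markers summed to at most 0.433 TPM with Kdr at 0, and the 5 epithelial markers to at most 1.69 TPM. The 6 markers of blood cells, with Adgre1 and Hbb-bs at 0, summed to 43.5 to 47.3 TPM with vehicle, 46.3 to 47.5 with MASM7 and 40.0 to 43.3 with MFI8. Of these, Cd14, Cd68 and Csf1r each had at least 1 TPM in every library, and Ptprc had at most 0.013 TPM. The 5 neural markers, of which Nes, Tubb3 and Map2 were detected and Sox2 and Sox10 were at 0, summed to 266 to 267 TPM with vehicle, 283 to 294 with MASM7 and 295 to 312 with MFI8. The part of these shifts in the results below was not tested. In such bulk samples, fewer cells that express a gene and less RNA per cell cannot be told apart.

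The transcripts of the core autophagy genes were present in every library and differed little between treatments. In the edgeR test described below, and likewise by DESeq2 and by limma on TPM, 0 of the 10 passed in each of the 3 comparisons. Relative to vehicle, the log2 fold changes lay between -0.13 and 0.12 under MFI8 and between -0.12 and 0.11 under MASM7, and the largest between the compounds was 0.14. Across the 10 genes, the 95% confidence intervals of the fold change reached from 0.821 to 1.20 with MFI8 and from 0.819 to 1.22 with MASM7, which are the largest changes in either direction that these libraries left within the interval of a single gene.

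Levels per length were read from the TPM values, which scale counts by exonic length and allow genes to be compared. Gabarap was the highest member at 191 ± 7.96 TPM (SD over the 6 libraries), followed by Gabarapl1 at 170 ± 12.1. After a gap came Atg5 at 71.0 ± 4.40 and Gabarapl2 at 62.3 ± 3.13. Both of the leading genes encode ubiquitin-like proteins of the GABARAP subfamily. Next stood Map1lc3a at 54.2 ± 3.12, Becn1 at 48.7 ± 2.23 and Wipi2 at 44.8 ± 2.60, and then Ulk1 at 27.7 ± 1.29. The lowest members were Map1lc3b at 20.8 ± 0.716 and Wipi1 at 20.4 ± 1.06.

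The ranges over the 6 libraries overlapped between Gabarap and Gabarapl1, Atg5 and Gabarapl2, Map1lc3a and Becn1, Becn1 and Wipi2, and Map1lc3b and Wipi1, so these neighbours were not separated by the spread. The ranges did not meet between Gabarapl1 and Atg5, Gabarapl2 and Map1lc3a, Wipi2 and Ulk1, or Ulk1 and Map1lc3b. The median tested gene had 18.9 TPM, so all the members lay above the middle of the expressed genes, from the 51.5th percentile for Wipi1 to the 93.2nd for Gabarap. The order depends on the length given to each gene. With counts per kilobase of the longest coding transcript, a scale chosen after the data were seen, Gabarap and Gabarapl1 were again the highest and Wipi1 the lowest, whereas Wipi2 moved from rank 7 to rank 3, Atg5 from 3 to 6, and Map1lc3a from 5 to 8, below Map1lc3b at rank 7.

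**Figure D1:**
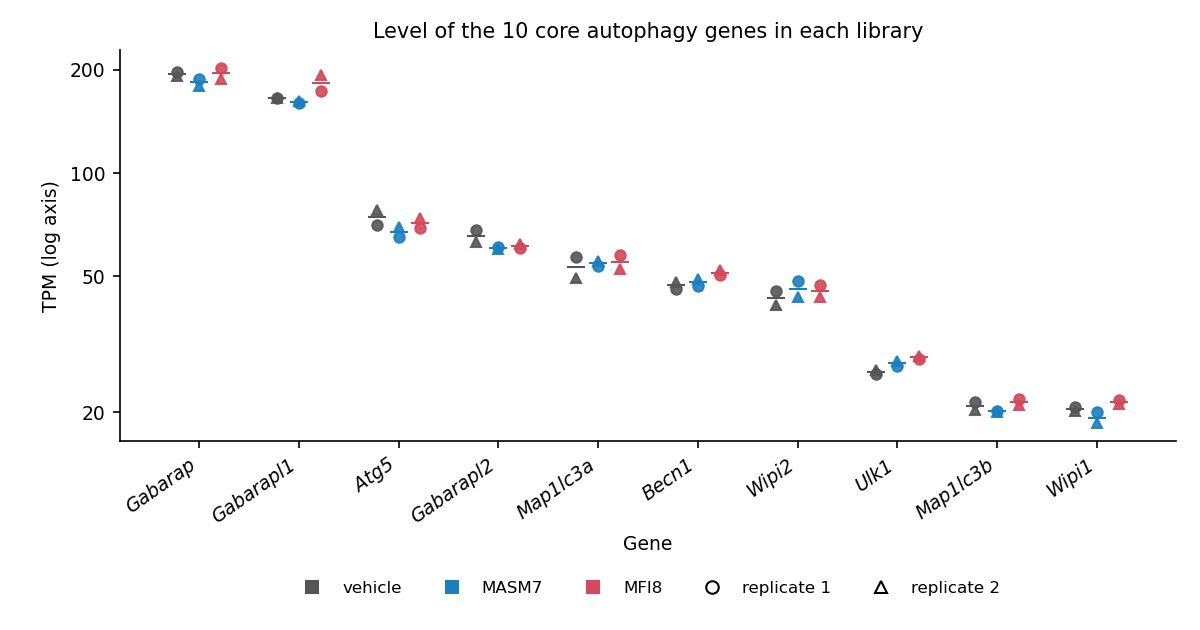
Levels of the core autophagy genes in TPM (y axis, log scale) in each of the 6 libraries, with the genes ordered by their mean along the x axis, colours for groups, circles for replicate 1, triangles for replicate 2 and dashes for group means. Gabarap and Gabarapl1 lie at 160 to 202 TPM, Wipi1 and Map1lc3b between 18.6 and 21.8 TPM, and the groups lie close together within each gene.

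The upstream DNA of 4 members is shown because they had the largest differences from vehicle in either direction, namely Ulk1, Gabarapl1 and Gabarapl2 with MFI8 and Atg5 with MASM7. Each run is the 100 bases before the earlier of the transcription starts in RefSeq and GENCODE, 5′ to 3′ on the strand of the gene, from RefSeq's promoter sequences on GRCm38.p6. Capitals mark GGGCGG on either strand, the GC box bound by Sp1-type factors, and CACGTG, the E-box core that factors such as TFEB bind. Ulk1 lies at chr5:110810098-110810197 (minus strand), Gabarapl1 at chr6:129533060-129533159 (plus), Gabarapl2 at chr8:111940603-111940702 (plus) and Atg5 at chr10:44268239-44268338 (plus).
Ulk1: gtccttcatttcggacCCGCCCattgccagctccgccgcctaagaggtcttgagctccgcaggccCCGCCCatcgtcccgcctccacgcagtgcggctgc
Gabarapl1: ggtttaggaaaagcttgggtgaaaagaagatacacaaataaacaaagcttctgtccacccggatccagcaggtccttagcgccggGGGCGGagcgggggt
Gabarapl2: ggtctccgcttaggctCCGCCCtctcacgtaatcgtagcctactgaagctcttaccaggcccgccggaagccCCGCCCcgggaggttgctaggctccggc
Atg5: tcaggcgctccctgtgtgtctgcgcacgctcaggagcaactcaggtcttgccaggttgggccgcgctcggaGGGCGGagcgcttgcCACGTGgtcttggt

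The promoter table had entries for 8 of the 10 genes, Becn1 and Map1lc3a having none, and each entry holds 250 bases before and 50 after the start. GGGCGG occurred on either strand in 7 of the 8, all but that of Gabarap, compared with 35.7% of all 32851 promoters and 63.4% of the 12528 promoters of tested genes. CACGTG occurred in that of Atg5 alone, against 7.15% of all promoters and 9.91% of those of tested genes. The longer TCACGTGA, which contains CACGTG, the letters TGATGCAA of the C/EBP-ATF site and TGANTCA of the AP-1 site occurred in 0 of the 8, against 1.85%, 0.575% and 5.20% of the promoters of tested genes. TGACNNNGC, the core of the antioxidant response element, occurred in that of Map1lc3b alone, against 12.4% of all promoters and 14.2% of those of tested genes. A match describes letters and not binding.

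For the comparison of MFI8 with vehicle, edgeR's quasi-likelihood F test, with p-values adjusted by Benjamini-Hochberg over the 14290 genes, called 0 of the 10 members at an adjusted p under 0.05, against 0% of all genes. At an unadjusted p under 0.05 it also called 0 of the 10, against 9.86% of all genes, and the DESeq2 Wald test called 0 of the 10, against 0.368% of the 13049 genes to which it gave an adjusted p. The fold changes were above 0 for 7 members and below 0 for 3. Their median log2 fold change was 0.030 and that of all genes 0.0027, and the sign of the former turned to -0.0078 under offsets for GC content and length, to -0.024 without the second vehicle library and to -0.017 without the first MFI8 library. The median size of the log2 fold change, taken without its sign, was 0.058 over the members and 0.10 over all genes. All 10 members lay above the median TPM of the tested genes, and genes of like level were not set apart, here or for MASM7. Both MFI8 libraries lay above both vehicle libraries for Ulk1, Becn1 and Gabarapl1, and below them for Gabarapl2, which makes 4 of 10 genes without overlap compared with 40.2% of all genes. The 3 higher members stand beside 20.9% of all genes and the 1 lower member beside 19.3%.

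For MASM7 against vehicle, the same edgeR test called 0 of the 10 members at an adjusted p under 0.05 (0% of all genes) and 0 at an unadjusted p under 0.05 (10.2% of all genes). The DESeq2 Wald test called 0 members and 0.00747% of the 26760 genes with an adjusted p there. The fold changes were above 0 for 4 members and below 0 for 6, with a median log2 fold change of -0.028 against 0.00067 over all genes, and a median size of 0.064 against 0.10. Ulk1 lay above vehicle without overlap, and Gabarap, Gabarapl2 and Atg5 lay below it, so that 4 of 10 members did not overlap compared with 42.8% of all genes. The higher share over all genes was 21.2% and the lower share 21.6%. Both comparisons used the same vehicle libraries, so a member that lay high or low in these libraries moved both values. Permuting 2 and 2 libraries exactly can give no two-sided p smaller than 0.333, so no gene was tested in that way.

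**Figure D2:**
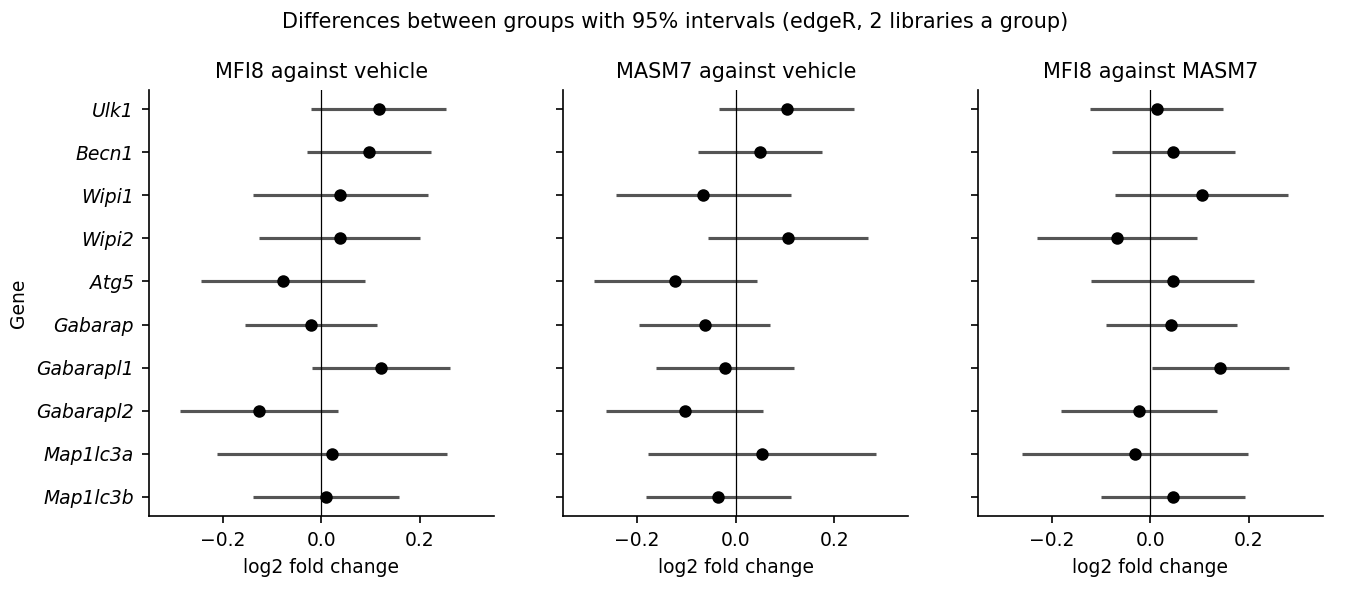
Log2 fold changes of the 10 core autophagy genes from the edgeR fit (x axis) for the 3 comparisons, with bars for the 95% confidence intervals. The points lie between -0.13 and 0.14, and every interval crosses 0 except that of Gabarapl1 for MFI8 against MASM7.

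Ulk1 (ENSMUSG00000029512.11, chromosome 5, 110784488 to 110810097, minus strand, GRCm38) encodes the kinase that starts autophagosome formation. Its expression was 47.8 and 48.5 CPM in the vehicle libraries, 50.7 and 52.7 under MASM7, and 51.6 and 52.7 under MFI8. All 4 treated libraries lay above both vehicle libraries, and the treated groups overlapped each other. The log2 fold change was 0.12 with MFI8 (standard error 0.061, edgeR adjusted p = 0.561) and 0.10 with MASM7 (standard error 0.061, adjusted p = 0.569). With offsets in each library for the GC content and length of transcripts the values were 0.017 and -0.0060, so the direction with MASM7 turned. The longest coding transcript of Ulk1 is 58.0% G and C, second among the members to the 63.1% of Map1lc3a.

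Becn1 (ENSMUSG00000035086.13, chromosome 11, 101285952 to 101302286, minus strand) encodes beclin 1, the scaffold of the class III PI3-kinase complex. It was measured at 92.3 and 95.4 CPM with vehicle, 94.6 and 99.6 under MASM7, and 98.6 and 101.9 under MFI8. Both MFI8 libraries lay above the vehicle range. Of the MASM7 libraries, the first lay within that range and the second above it. With MFI8 the log2 fold change was 0.096 (95% interval -0.029 to 0.22, edgeR adjusted p = 0.599), and with MASM7 it was 0.050 (interval -0.075 to 0.18, adjusted p = 0.767). Of its exonic bases, 43.9% are shared with Cntd1 on the opposite strand, which had 0 to 6 counts in a library. The strand setting of the counting is not given in the sources used here, so reads from such a pair cannot be told apart.

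The WIPI proteins bind the lipid phosphatidylinositol 3-phosphate, and WIPI2 recruits the ATG16L1 complex. Wipi2 (ENSMUSG00000029578.15, chromosome 5, 142627698 to 142670588, plus strand) had 135.3 and 122.3 CPM with vehicle, 145.6 and 131.6 under MASM7, and 137.6 and 127.0 under MFI8. The libraries of a group lay further apart than the group means, and every group overlapped the others. In each group replicate 1 lay above replicate 2. Of the 10 members, 7 kept the same order of libraries 1 and 2 in the 3 groups, against 39.9% of all genes. These were Ulk1, Becn1, Map1lc3b, Gabarap, Wipi1, Wipi2 and Atg5, and what the replicate numbers mark is not given in the sources used here. Its log2 fold change was 0.11 with MASM7 (interval -0.057 to 0.27, edgeR adjusted p = 0.612) and 0.038 with MFI8 (interval -0.13 to 0.20, adjusted p = 0.902), the latter -0.0080 under the GC and length offsets. Over the settings tried, the value with MASM7 ranged from 0.031 to 0.18 and that with MFI8 from -0.034 to 0.11.

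Wipi1 (ENSMUSG00000041895.15, chromosome 11, 109573331 to 109611967, minus strand) was lower, at 26.0 and 25.0 CPM with vehicle, 25.2 and 23.5 under MASM7, and 26.5 and 25.8 under MFI8. The MFI8 libraries lay above the MASM7 libraries without overlap, and both treated groups overlapped vehicle. Its log2 fold change was 0.039 with MFI8 and -0.065 with MASM7 (edgeR adjusted p = 0.908 and 0.782). Over the settings tried, these ranged from 0.0051 to 0.067 and from -0.12 to -0.016. On the TPM scale, Wipi2 stood 2.18 and 2.05 times as high as Wipi1 with vehicle, 2.42 and 2.34 times with MASM7, and 2.17 and 2.06 times with MFI8. The ratio in both MASM7 libraries was above that in the other 4.

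Atg5 (ENSMUSG00000038160.7, chromosome 10, 44268358 to 44364291, plus strand) encodes the ATG12 acceptor of the conjugation machinery. Its levels were 47.3 and 51.4 CPM with vehicle, 43.7 and 47.0 under MASM7, and 45.1 and 48.4 under MFI8. Both MASM7 libraries lay below vehicle, the nearest at 47.0 against 47.3 CPM, while the MFI8 libraries straddled the lower vehicle library. The log2 fold change was -0.12 with MASM7 (interval -0.29 to 0.042, edgeR adjusted p = 0.576), or -0.069 under the GC and length offsets, and -0.077 with MFI8 (interval -0.24 to 0.088, adjusted p = 0.763). Without the second vehicle library these were -0.059 and -0.014, and without the first -0.18 and -0.13. Atg5 had the lowest share of G and C among the members, 44.6%.

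LC3 and GABARAP proteins are the mammalian relatives of yeast Atg8, which are attached to lipid in the autophagosome membrane and there bind cargo receptors. Their genes are related in sequence, so reads that match more than 1 of them could have been split or lost in the authors' counting. Summed over the 5 members of the family, TPM was 509 and 490 with vehicle, 484 and 477 under MASM7, and 516 and 517 under MFI8. On this scale the sum lay highest in the MFI8 libraries and lowest in the MASM7 libraries. In CPM, a scale added after the data were seen, the sum was 309 and 294 with vehicle, 293 and 291 under MASM7, and 304 and 306 under MFI8, so that the MFI8 libraries lay within the vehicle range. No p is given for a sum over chosen genes. The GABARAP subfamily made up 84.2% to 85.8% of the TPM sum in each library.

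**Figure D3:**
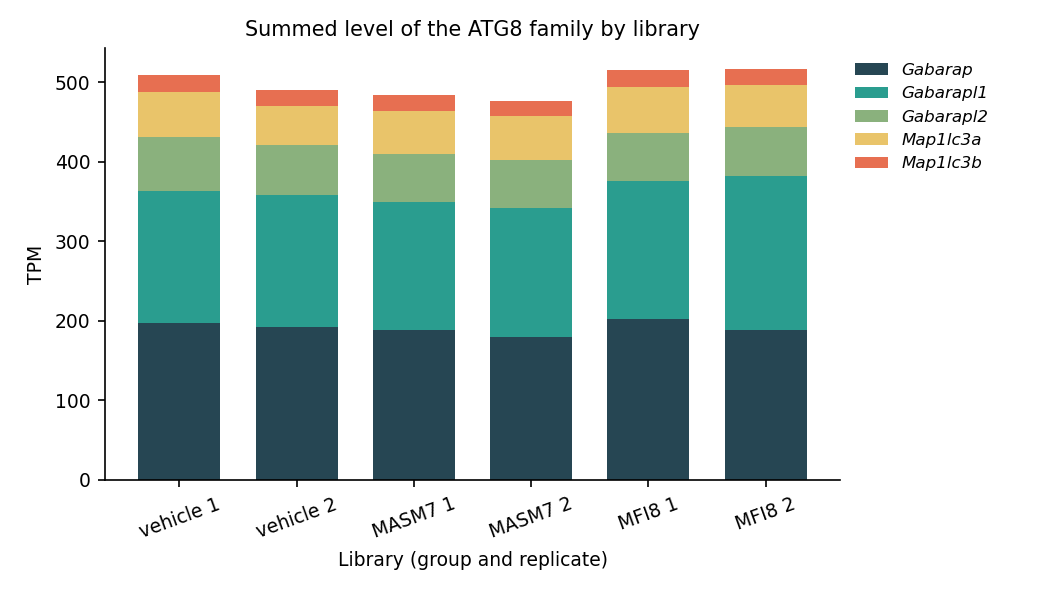
Summed TPM of the LC3 and GABARAP genes in each library (y axis, bars from 0), divided by gene. The bars are 509 and 490 TPM high with vehicle, 484 and 477 under MASM7, and 516 and 517 with MFI8, and Gabarap and Gabarapl1 form most of each bar.

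Gabarapl1 (ENSMUSG00000030161.8, chromosome 6, 129533160 to 129542346, plus strand) encodes a GABARAP-like protein that is abundant in many tissues. It stood at 95.1 and 93.6 CPM with vehicle, 92.2 and 93.8 under MASM7, and 97.0 and 108.0 under MFI8. The second MFI8 library was well above the other 5, and the first lay just above the higher vehicle library. The log2 fold change with MFI8 was 0.12 (interval -0.020 to 0.26, edgeR adjusted p = 0.556), which was 0.20 without the first MFI8 library and 0.040 without the second. With MASM7 it was -0.021 (interval -0.16 to 0.12, adjusted p = 0.925), and it ranged from -0.078 to -0.0015 over the settings tried. A part of its exonic bases, 28.3%, is shared with 1700101I11Rik on the opposite strand, which had 4 to 13 counts in a library.

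Gabarap (ENSMUSG00000018567.14, chromosome 11, 69991143 to 69994951, plus strand), the founding member of the subfamily, had 103.3 and 99.6 CPM with vehicle, 99.4 and 94.8 under MASM7, and 103.7 and 96.4 under MFI8. Both MASM7 libraries were below vehicle by a narrow margin, and the MFI8 libraries spanned the vehicle range. Its log2 fold change was -0.063 with MASM7 and -0.020 with MFI8 (edgeR adjusted p = 0.720 and 0.934), and the latter was 0.0064 on the scale of log2(TPM + 1). The ratio of Gabarap to Gabarapl1 in TPM was 1.10 to 1.19 in 5 libraries and 0.975 in the second MFI8 library, where Gabarapl1 was the higher of the pair.

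Gabarapl2 (ENSMUSG00000031950.7, chromosome 8, 111940703 to 111953612, plus strand), also called GATE-16, was measured at 45.2 and 41.1 CPM with vehicle, 40.3 and 39.9 under MASM7, and 38.9 and 40.1 under MFI8. All 4 treated libraries lay below both vehicle libraries, the vehicle libraries being the more widely spread. Its log2 fold change was -0.13 with MFI8 (standard error 0.071, edgeR adjusted p = 0.591) and -0.10 with MASM7 (standard error 0.071, adjusted p = 0.609). Without the first vehicle library these values were -0.054 and -0.034, and without the second -0.19 and -0.17.

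Map1lc3a (ENSMUSG00000027602.9, chromosome 2, 155276297 to 155278073, plus strand) encodes LC3A. It had the fewest counts of the members, with 19.2 and 16.4 CPM with vehicle, 18.1 and 18.7 under MASM7, and 18.9 and 17.2 under MFI8. The treated libraries all lay between the vehicle libraries. Its intervals were the widest of the 10, with a log2 fold change of 0.022 with MFI8 (interval -0.21 to 0.26, edgeR adjusted p = 0.957) and 0.053 with MASM7 (interval -0.18 to 0.28, adjusted p = 0.875). The GC and length offsets turned these to -0.031 and -0.088.

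Map1lc3b (ENSMUSG00000031812.16, chromosome 8, 121590361 to 121598760, plus strand) encodes LC3B, the form whose lipidation is usually followed as a readout of autophagosomes. It was measured at 45.8 and 43.0 CPM with vehicle, 43.3 and 43.3 under MASM7, and 45.6 and 43.8 under MFI8. Both treated groups lay within the vehicle range. Its log2 fold change was 0.010 with MFI8 (interval -0.14 to 0.16, edgeR adjusted p = 0.969) and -0.035 with MASM7 (interval -0.18 to 0.11, adjusted p = 0.868), and the GC and length offsets turned the former to -0.022.

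**Figure D4:**
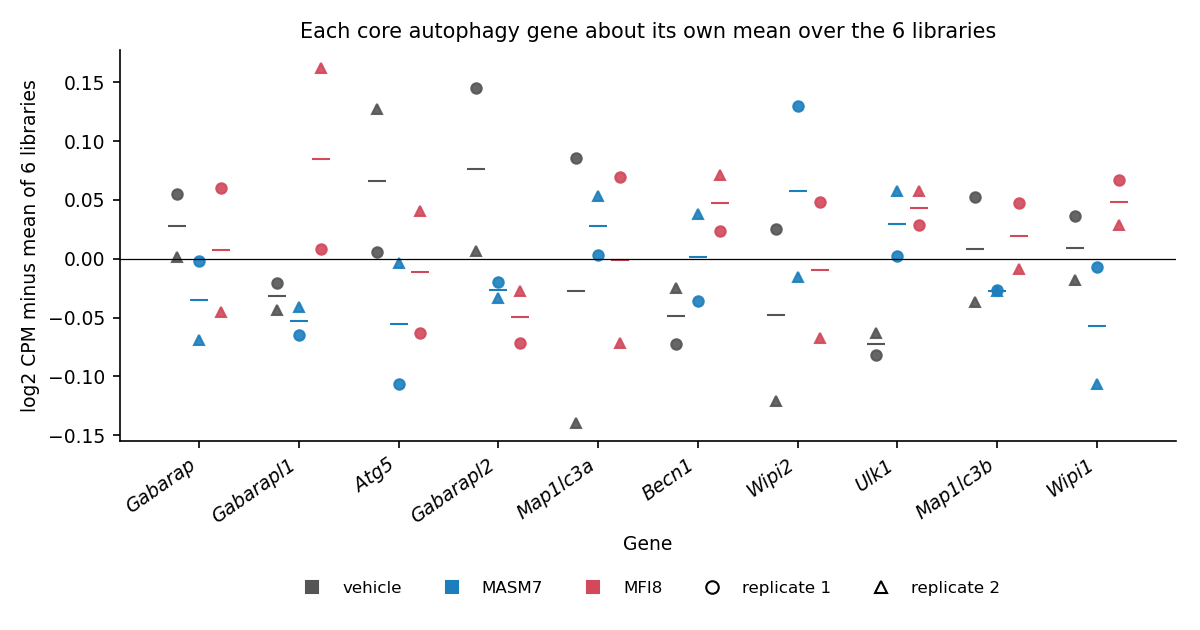
Log2 CPM of each core autophagy gene in each library, centred on the mean of that gene over the 6 libraries (y axis), with colours for groups, circles for replicate 1, triangles for replicate 2 and dashes for group means. For Ulk1 all 4 treated libraries lie above vehicle and for Gabarapl2 all 4 lie below, and Gabarapl1 has 1 MFI8 library far above the rest.

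The activator and the inhibitor were then set against each other. For MFI8 against MASM7, the edgeR test, adjusted as before, called 0 of the 10 members (0% of all genes), the DESeq2 Wald test 0 (0.231% of the 12559 genes with an adjusted p), and an unadjusted p under 0.05 picked 1 member, Gabarapl1, beside 7.18% of all genes. Gabarapl1 was higher with MFI8 by a log2 fold change of 0.14 (standard error 0.062, interval 0.0025 to 0.28, edgeR adjusted p = 0.687), which was 0.061 without the second MFI8 library and 0.22 without the first, and which passed under 1 of the other settings. Members with no overlap between these groups were Gabarapl1, Wipi1 and Map1lc3b, all higher with MFI8, 3 of 10 beside 39.2% of all genes in either direction and 19.6% in the higher direction. The median log2 fold change was 0.044, compared with -0.0015 over all genes, and the intervals of the members reached from 0.835-fold to 1.21-fold.

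Averaged over the 10 members, log2 CPM centred on each gene spanned only 0.054 between libraries, from -0.031 in the second vehicle library to 0.023 in the first. The genes with the most similar pattern, by the mean absolute difference over the 6 libraries among 8880 genes with at least 10 CPM, were Rtn4, Tnks and Emsy at 0.0058, 0.0073 and 0.0085. A flat pattern has many neighbours, and 2448 genes lay within 0.05 of it. Wipi2 had the widest range of the members, 0.25 on the log2 scale, and the genes nearest to it were Myo1e, Pafah1b3 and Src at 0.012, 0.014 and 0.015, with 651 genes within 0.05.

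Other genes of the pathway were read from 8 lists of 68 genes, of which 66 were tested and Calcoco2 and Rubcnl were not. At an adjusted p under 0.05, edgeR called 0 of the 66 in each of the 3 comparisons. The DESeq2 Wald test called 2 with MFI8 against vehicle, Sqstm1 and Ddit3, beside 0.368% of its genes with an adjusted p, 0 with MASM7, beside 0.00747%, and 1 for MFI8 against MASM7, Sqstm1, beside 0.231%. The calls depend on the setting, and up to 7, 1 and 6 of the 66 were called under other settings of the analysis. At an unadjusted p under 0.05, 6 were higher and 3 lower with MFI8 against vehicle, 13.6% of those tested. For MASM7 against vehicle, 2 were higher and 7 lower, also 13.6%. For MFI8 against MASM7, 7 were higher and 1 lower, 12.1%. The shares over all genes were those given above, 9.86%, 10.2% and 7.18%. Since the lists were chosen with earlier results of these data known, the shares describe them and do not test them.

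Cargo receptors link cargo to LC3 and GABARAP. Sqstm1, the gene of p62, had 224 and 204 CPM with vehicle, 237 and 224 under MASM7, and 281 and 320 under MFI8. Its MFI8 libraries lay above all others, with a log2 fold change of 0.49 against vehicle (standard error 0.074, edgeR adjusted p = 0.0924) and 0.38 against MASM7 (standard error 0.073, adjusted p = 0.321). The DESeq2 Wald test gave adjusted p-values of 5.04e-06 and 0.00346 for these. Against vehicle, 5 of the 11 tested receptors were higher and 6 lower with MFI8, with a median log2 fold change of -0.00094.

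Bnip3, Bnip3l and Fundc1 encode receptors of the outer mitochondrial membrane, the last 2 being named after their values were seen. Bnip3 had 13.2 and 13.4 CPM with vehicle, 10.8 and 10.5 under MASM7, and 9.01 and 10.9 with MFI8, a log2 fold change of -0.41 with MFI8 and -0.32 with MASM7 (edgeR adjusted p = 0.358 and 0.473). Bnip3l, its relative also known as Nix, had 69.3 and 66.5 CPM with vehicle, 62.5 and 57.3 under MASM7, and 60.6 and 58.2 with MFI8 (log2 fold changes -0.19 with MFI8 and -0.18 with MASM7, adjusted p = 0.412 and 0.473). Fundc1 had 42.4 and 44.4 CPM with vehicle, 38.5 and 41.1 with MASM7 and 37.8 and 38.5 in the MFI8 libraries. In each of the 3 the treated libraries lay below both vehicle libraries, as did those of 19.3% of all genes under MFI8 and 21.6% under MASM7, and edgeR called 0 of the 3 at the adjusted threshold, although Bnip3 and Bnip3l with MFI8 were called under 1 of the other settings.

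In the ULK1 complex, Rb1cc1, the gene of the scaffold FIP200, had 76.2 and 80.8 CPM with vehicle, 71.2 and 67.7 under MASM7, and 77.4 and 83.8 under MFI8. The log2 fold change with MASM7 against vehicle was -0.18 (edgeR adjusted p = 0.476), or -0.059 under the GC and length offsets, and that of MFI8 against MASM7 was 0.22 (adjusted p = 0.544). Ulk2, a kinase related to ULK1, had a log2 fold change of 0.33 for MFI8 against MASM7 (standard error 0.090, edgeR adjusted p = 0.509) and -0.21 for MASM7 against vehicle (adjusted p = 0.479), and Atg13 of -0.11 for MFI8 against vehicle (adjusted p = 0.682). Between the compounds, Atg13 and Atg101 stood at 0.014 and 0.045, and their libraries overlapped. For MFI8 against MASM7, edgeR called Ulk2 (adjusted p = 0.00269) and Rb1cc1 with the replicate number as a block. It called Ulk2 but not Rb1cc1 with the block and the offsets (adjusted p = 0.00318), and without the filter (adjusted p = 0.0341).

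The transcription factors and kinases of control were 15 higher and 3 lower with MFI8, with a median log2 fold change of 0.087, and 13 higher and 5 lower with MASM7, with a median of 0.093. Over all genes the split was 7239 higher and 7051 lower with MFI8 and 7163 and 7127 with MASM7, and 5 and 2 of the 18 had an unadjusted p under 0.05, beside 9.86% and 10.2% of all genes. Ddit3, the gene of the stress factor CHOP, had 12.1 and 11.2 CPM with vehicle, 13.9 and 14.1 under MASM7, and 17.5 and 21.3 under MFI8. Its log2 fold change was 0.74 with MFI8 (standard error 0.12, edgeR adjusted p = 0.0924) and 0.47 for MFI8 against MASM7 (adjusted p = 0.370). Sesn2, a stress-induced inhibitor of mTORC1, had 25.7 and 30.3 CPM with vehicle, 32.4 and 38.3 under MASM7, and 34.0 and 44.2 with MFI8, with a log2 fold change of 0.48 with MFI8 and 0.33 with MASM7 (edgeR adjusted p = 0.357 and 0.477). Both treated groups lay above vehicle without overlap in both genes, as did 20.9% of all genes with MFI8 and 21.2% with MASM7. DESeq2 called Ddit3 with MFI8 against vehicle (adjusted p = 0.00297). With the replicate number as a block, and also without the filter, edgeR called Atf4, Ddit3, Sesn2 and Trib3 with MFI8 against vehicle. In the same settings it called Sesn2 with MASM7 against vehicle, and Ddit3, Mitf and Trib3 for MFI8 against MASM7. Trib3, a pseudokinase gene induced by stress and named after its values were seen, had 6.09 and 8.74 CPM with vehicle, 7.98 and 11.4 under MASM7, and 10.6 and 20.8 under MFI8, with a log2 fold change of 1.09 with MFI8 (standard error 0.30, edgeR adjusted p = 0.356). The second MFI8 library lay far above all others, and the first lay below the higher MASM7 library.

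In the remaining lists the smallest p belonged to genes with modest differences. The class III PI3-kinase complex was led by Rubcn, with a log2 fold change of 0.10 with MFI8 and 0.11 with MASM7 (edgeR adjusted p = 0.674 and 0.606), and by Nrbf2 for MFI8 against MASM7 at 0.16. Over the settings tried, Rubcn ranged from 0.018 to 0.18 with MFI8 and from 0.034 to 0.18 with MASM7. The list of ATG9 and lipid transfer was led by the scramblase gene Atg9a at 0.19 with MFI8, and by Tmem41b at -0.16 with MASM7 and 0.14 for MFI8 against MASM7. Among the conjugation enzymes these were Atg7 at 0.16 with MFI8 and 0.10 for MFI8 against MASM7, and Atg12 at -0.14 with MASM7. Of the ATG4 proteases, which process LC3 and GABARAP, Atg4d stood at 0.14 with MFI8 and Atg4a at -0.29 with MASM7 and 0.27 for MFI8 against MASM7. The fusion genes were the least spread, with Stx17 at 0.099 with MFI8 and 0.092 for MFI8 against MASM7, and Ykt6 at 0.054 with MASM7. All of these had an edgeR adjusted p of at least 0.477.

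**Figure D5:**
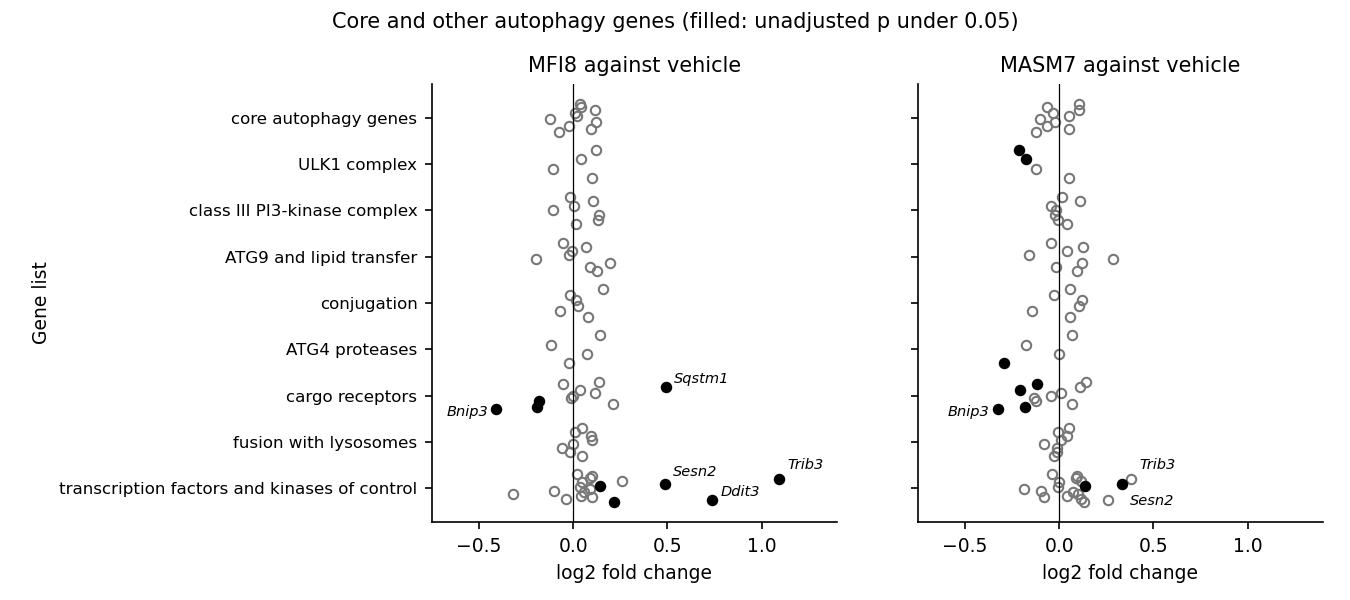
Log2 fold changes (x axis) of the core autophagy genes and of the tested genes of 8 other lists of the pathway (y axis) for MFI8 and MASM7 against vehicle, filled where the unadjusted p was under 0.05. The core genes lie within 0.13 of 0 in both panels, while Sqstm1, Ddit3, Sesn2 and Trib3 stand to the right and Bnip3 to the left with MFI8.

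Among the targets of the compounds, Mfn1 had 110.6 and 108.9 CPM with vehicle, 101.7 and 100.1 under MASM7, and 105.8 and 100.6 with MFI8, and Mfn2 had 119.2 and 118.6, 117.2 and 122.2, and 122.9 and 125.9 CPM. The log2 fold change of Mfn1 was -0.12 with MASM7 and -0.089 with MFI8, and that of Mfn2 was 0.0098 and 0.065 (edgeR adjusted p = 0.488, 0.610, 0.963 and 0.707). The direction of Mfn2 with MASM7 was negative with library size alone, with TPM and under the GC and length offsets.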

How the data were processed

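RNA was extracted from WT MEFs and sequenced as polyA RNA in 6 libraries, grouped by the treatment in the labels. Reads were trimmed (Trimmomatic), aligned to mm10 (GRCm38) by STAR and counted over exons by featureCounts, and the authors deposited raw counts, counts divided by size factors (not used here) and TPM values. The deposited TPM values of the 10 genes implied lengths equal to their exonic lengths in GENCODE vM21. Raw counts were fitted in edgeR 4.0.16 (R 4.3.3) with TMM, filterByExpr and 1 coefficient per group over all 6 libraries, and tested by the quasi-likelihood F test with Benjamini-Hochberg adjustment over the 14290 genes at 0.05. The standard error of a log2 fold change was its size over the root of F, and 95% intervals used the t distribution. CPM used TMM factors, and log2 CPM added a prior count of 2.

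Alternatives were other size factors, library size alone, other filters, only the groups compared, the replicate number as a block, lowess offsets (span 0.3) for GC content and length, DESeq2 1.42.0, limma 3.58.1 on log2(TPM + 1) and log2(TPM + 0.1), and each library left out. The genes and lists were chosen with earlier results of these data known. Named were all 10 members, the gene of each other list with the smallest p in each comparison, the 3 genes nearest in pattern to the members' mean and to the widest-ranging member, and Mfn1 and Mfn2. Bnip3l, Fundc1 and Trib3 were named after their values were seen. Gene positions are from GENCODE vM21. Counting error weighs most on Map1lc3a, which had 412 to 570 counts in a library. Reads were not used here.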

Additional observations from a re-analysis of the deposited data

How the results depend on the processing

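The members stayed short of the threshold in each comparison under nearly every alternative: of 540 member values recomputed, 500 kept direction and side of the threshold, 39 changed direction and 1 passed it. That was Gabarapl1 for MFI8 against MASM7, with the replicate block and the offsets for GC content and length together (log2 fold change 0.18, edgeR adjusted p = 0.0172, 1 member called). No source states what the replicate numbers mark, so the fit without them was kept. Deviations of same-numbered libraries had r of 0.152 to 0.188 between groups over all genes and of 0.508 to 0.621 over the more expressed 7145, a hint of pairing from the data, not the design, and 7 of 10 members kept the same order of libraries 1 and 2 in the 3 groups, against 39.9% of all genes. The block called 720 genes for MFI8, 554 for MASM7 and 439 for MFI8 against MASM7, and 7 (Atf4, Bnip3, Bnip3l, Ddit3, Sesn2, Sqstm1 and Trib3), 1 (Sesn2) and 6 (Ddit3, Mitf, Rb1cc1, Sqstm1, Trib3 and Ulk2) pathway genes. The block with the offsets called 586, 155 and 695 genes, and 5 and 6 pathway genes for MFI8 against vehicle and against MASM7.

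In the order MFI8 against vehicle, MASM7 against vehicle and MFI8 against MASM7, genes called numbered 256, 127 and 168 without the filter, 48, 2 and 29 with DESeq2, 8, 14 and 13 with limma on log2(TPM + 1), 8, 18 and 15 on it without a filter, and 19, 18 and 19 on log2(TPM + 0.1). With only the groups compared there were 1 for MASM7 and 2 for MFI8 against MASM7. Pathway genes called were 5, 1 and 5 without the filter, and 2 and 1 with DESeq2 for MFI8 against vehicle and against MASM7. The members' median log2 fold change became -0.0078 with MFI8 and -0.068 with MASM7 under the offsets, with and without the block, and 0.059 with MFI8 on log2(TPM + 0.1). For MFI8 against MASM7 it became 0.086 on log2(TPM + 1), with and without the filter, and 0.087 on log2(TPM + 0.1). The cause was not tested.

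Directions turned under the offsets (with the block in brackets) for Map1lc3a at -0.031 (-0.029), Map1lc3b at -0.022 (-0.022) and Wipi2 at -0.0080 (-0.0075) with MFI8, for Ulk1 at -0.0060 (-0.0058), Map1lc3a at -0.088 (-0.087) and Mfn2 at -0.043 (-0.043) with MASM7, and for Map1lc3a at 0.057 (0.058) and Mfn1 at -0.0010 (-0.0022) for MFI8 against MASM7. On TPM, with either pseudocount, Gabarap turned to 0.0064 with MFI8, Mfn2 to -0.0070 and -0.0071 with MASM7, and, for MFI8 against MASM7, Map1lc3a to 0.014 and Gabarapl2 to 0.020. With library size alone Mfn2 was -0.0010 with MASM7.

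With each library left out in turn, genes called ranged from 0 to 26 for MFI8, 0 to 2 for MASM7 and 0 to 24 for MFI8 against MASM7, the highest of MFI8's 2 comparisons being without MFI8 replicate 1, and that of MASM7 without MASM7 replicate 2. Pathway genes ranged from 0 to 3 for MFI8 and 0 to 1 for MFI8 against MASM7. The members' median ranged from -0.024 to 0.071 with MFI8 and from -0.058 to -0.00026 with MASM7, the ends being without vehicle replicates 2 and 1, and from 0.0090 to 0.046 for MFI8 against MASM7, lowest without MASM7 replicate 1. Single values that turned ranged, with MFI8, from -0.088 to 0.14 for Map1lc3a, -0.034 to 0.057 for Map1lc3b, -0.071 to 0.032 for Gabarap and -0.034 to 0.11 for Wipi2, with MASM7, from -0.057 to 0.17 for Map1lc3a, -0.079 to 0.0096 for Map1lc3b and -0.020 to 0.040 for Mfn2, and, for MFI8 against MASM7, from -0.014 to 0.041 for Ulk1, -0.098 to 0.041 for Map1lc3a, -0.0069 to 0.095 for Gabarap, -0.045 to 0.0017 for Gabarapl2, -0.14 to 0.0076 for Wipi2, -0.0090 to 0.098 for Atg5 and -0.0013 to 0.068 for Mfn1. Where this left 1 library in a group, it was taken to vary like the other groups.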
